A study of Homo sapiens with 18 samples.

Results

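The genes described here are 36 genes of glycolysis and of the hypoxia response, chosen by name: every non-control spot whose gene name was one of the 36 was taken. They are 36 of the 36204 gene names on the array, and 50 of its 50599 probes measured them. The list holds 3 glucose and lactate transporters, 16 glycolytic enzymes, 3 regulators of glycolytic flux, HIF1A with 2 of its prolyl hydroxylases, and 11 other genes that hypoxia induces. Expression was measured with one-colour Agilent arrays on 18 RNA samples, in 6 groups of 3 biological replicates, from a pair of established human colorectal cancer cell lines. HT29 is the parental line, sensitive to oxaliplatin (OXA), a platinum drug that damages DNA. HTOXAR3 was derived from HT29 by continuous exposure to rising OXA. Each line was left untreated, treated with OXA for 24 h, or treated for 24 h with OXA plus Curcumin, a plant polyphenol, at 10 µM. The OXA dose was 10 µM in HT29 and 30 µM in HTOXAR3, so a difference between the lines in a response to OXA cannot be told apart from a difference in dose. Curcumin alone and other resistant lines were not analysed here, so HTOXAR3 stands for resistance as 1 derived line.

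Glycolysis splits glucose into pyruvate in the cytosol, and lactate dehydrogenase and the lactate transporters carry away its product when respiration does not take it up. The hypoxia-inducible factor, made of HIF1A and a constant partner, is kept low in normal oxygen because prolyl hydroxylases (EGLN1, EGLN3) mark HIF1A protein for destruction. When it accumulates it binds a short DNA core, the hypoxia response element, near genes of glucose uptake, glycolysis, pH control and vessel growth, which is why the lists of glycolytic and hypoxia genes overlap. Colorectal cancer cells often take up much glucose, and CA9 staining is used as a mark of hypoxic tumour regions. HIF1A is regulated mostly as a protein, which an array of RNA does not measure.

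The core of the hypoxia response element was looked up in RefSeq promoter windows of GRCh38.p14, which run from 250 bases before to 50 bases after a gene's start. Windows were found for 32 of the 36 genes, all but SLC2A3, VEGFA, BNIP3L and NDRG1. The core was searched as ACGTG or GCGTG on both strands. A CACGTG stretch counts once on each strand. At least 1 match was found for 29 of the 32 genes (90.6%), against 14318 of 27305 genes in the table (52.4%), and the stricter ACGTG was found for 62.5% against 24.9%. A gene counted if any of its windows held a match, so genes with more windows had more chances of one. Counted per window, 42 of 62 member windows (67.7%) and 17012 of 35116 windows in all (48.4%) had a match. The members were chosen by name as genes of glycolysis and the hypoxia response, so these shares describe the list and test nothing. Of the members that differed between the untreated lines, the core was in the windows of 6 of 7 genes that were lower in HTOXAR3 and of 4 of 6 that were higher. The 250 bases before the start are printed for the members with 1 window and the largest differences between the untreated lines, CA9, ALDOC and ANKRD37 (lower in HTOXAR3) and PFKFB4, ADM and ENO2 (higher in HTOXAR3). Each reads 5′ to 3′ along the gene, with the core in capitals. A core on the opposite strand therefore reads CACGT or CACGC. The windows lie at chr9:35673678-35673927 (+) for CA9, chr17:28576896-28577145 (-) for ALDOC, chr4:185396591-185396840 (+) for ANKRD37, chr3:48556804-48557053 (-) for PFKFB4, chr11:10304823-10305072 (+) for ADM and chr12:6914330-6914579 (+) for ENO2, with the strand after each.
CA9: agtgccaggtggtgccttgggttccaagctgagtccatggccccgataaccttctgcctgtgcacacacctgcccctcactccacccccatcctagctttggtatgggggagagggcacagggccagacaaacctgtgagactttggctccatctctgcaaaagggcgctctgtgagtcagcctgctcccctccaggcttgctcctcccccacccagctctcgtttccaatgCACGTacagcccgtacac
ALDOC: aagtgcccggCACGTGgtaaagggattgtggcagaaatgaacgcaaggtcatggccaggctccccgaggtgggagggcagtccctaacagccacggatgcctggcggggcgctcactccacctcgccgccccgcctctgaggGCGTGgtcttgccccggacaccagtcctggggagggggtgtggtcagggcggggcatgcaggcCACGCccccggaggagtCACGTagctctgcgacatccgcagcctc
ANKRD37: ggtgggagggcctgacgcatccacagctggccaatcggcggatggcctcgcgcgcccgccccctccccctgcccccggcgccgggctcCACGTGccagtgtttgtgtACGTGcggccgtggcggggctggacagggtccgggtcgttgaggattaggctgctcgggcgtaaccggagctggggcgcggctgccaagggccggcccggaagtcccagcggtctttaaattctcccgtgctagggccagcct
PFKFB4: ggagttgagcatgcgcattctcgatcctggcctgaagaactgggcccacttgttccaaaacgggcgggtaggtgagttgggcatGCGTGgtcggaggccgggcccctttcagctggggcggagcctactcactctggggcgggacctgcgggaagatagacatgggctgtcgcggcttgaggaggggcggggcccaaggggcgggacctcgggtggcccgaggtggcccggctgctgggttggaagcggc
ADM: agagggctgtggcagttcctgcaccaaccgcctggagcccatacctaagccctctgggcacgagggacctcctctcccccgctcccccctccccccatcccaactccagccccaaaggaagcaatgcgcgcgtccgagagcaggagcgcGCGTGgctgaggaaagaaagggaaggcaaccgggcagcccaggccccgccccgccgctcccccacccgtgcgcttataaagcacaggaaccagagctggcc
ENO2: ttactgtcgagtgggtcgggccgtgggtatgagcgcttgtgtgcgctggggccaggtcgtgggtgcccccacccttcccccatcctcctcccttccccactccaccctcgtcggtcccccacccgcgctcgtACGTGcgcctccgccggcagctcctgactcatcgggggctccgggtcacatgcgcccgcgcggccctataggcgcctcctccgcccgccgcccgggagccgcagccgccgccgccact
A match is a run of letters and not a measured binding site, and CA9, ADM, ENO2 and PFKFB4 held 1 match each in these windows while ALDOC held 5 and ANKRD37 held 3.

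Values are log2 intensities after background correction and quantile normalization, so 1 unit is a factor of 2. They allow a gene to be compared between samples, and levels of different probes were not compared. A gene was called where the limma fit over all 36204 gene names gave a Benjamini-Yekutieli (BY) adjusted p under 0.05 and a fold change over 1.2. Of the 36 genes, 34 were well above background on all 18 arrays, while SLC2A3, the high-affinity neuronal type glucose transporter, and BNIP3, a mitophagy receptor, were well above background on none. Their levels lay between 2.56 and 3.85 for SLC2A3 and between 3.20 and 4.34 for BNIP3, and no fold is given for them. Bulk RNA was measured, in which fewer cells of a type and less RNA per cell cannot be told apart. Between 52.4% and 63.6% of spots were well above background on an array, and replicates correlated at 0.986 to 0.995. Of the 8 colonic epithelium markers, 7 were well above background on every array, while CDX2, a colonic transcription factor, was so on 10 arrays and ran from 8.01 down to 3.34. None of the 4 fibroblast markers was above background on all arrays, but 3 of 4 leukocyte markers (CD14 at 10.2 to 11.5) and 2 of 3 endothelial markers were. Their part in the results below was not tested.

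One array stood apart for these genes. Replicate 3 of untreated HT29 was the highest of its group for 24 of the 34 measured members, and lay over 0.3 above the mean of the other 2 replicates for 10 of them. Over all gene names it was highest for 39.3% and lay over 0.3 above for 16.8%. On each of the other 17 arrays at most 2 members lay that far above their group. The excess was largest for NDRG1 (1.61), PFKFB4 (1.24) and ALDOC (1.17), and it was between 0.33 and 0.45 for ANKRD37, PDK1, ENO2, CA9, EGLN3, KDM3A and P4HA1. What set this array apart was not tested. Called members whose call was gained or lost without it, or whose difference from untreated HT29 moved by over 0.3, are given with and without it. The other 32 called differences and line differences that rest on untreated HT29 kept their call and direction and moved by at most 0.14.

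The first comparison asked how the resistant line differed from its parent before treatment. Untreated HTOXAR3 had far less CA9 and NDRG1 RNA than untreated HT29, and more ADM, PFKFB4, ENO2, P4HA2 and HIF1A. VEGFA was higher by its brighter probe, while its second probe lay in the other direction and was not called. Of the 36 genes, 15 were called (41.7%), 7 higher and 8 lower, where 11.6% of all gene names were called, 6.28% higher and 5.28% lower. The median difference of the members was -0.06 against -0.03 over all gene names, and the median size of the difference was 0.27 against 0.21. Without replicate 3 of untreated HT29 12 members were called, 6 in each direction, and all 12 were among the 15, with 9.79% of all gene names called.

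CA9, carbonic anhydrase IX, keeps the cytosol of hypoxic cells from turning acid by hydrating carbon dioxide outside the cell. Its levels were 10.19, 10.08 and 10.54 in untreated HT29 and 6.79, 7.20 and 6.74 in untreated HTOXAR3. The groups did not overlap, and the lower level of HTOXAR3 was still well above background on every array. The difference was -3.36 (SE 0.17, 95% interval -3.73 to -2.98), a 10.3-fold lower intensity in HTOXAR3 (limma, BY adjusted p = 6.06e-08). It was -3.22 without replicate 3 of untreated HT29. The single CA9 probe is 60 bases long and its annotated positions span 1388 bases of GRCh37 (chr9:35677817-35679204, + strand), longer than the probe, as for a probe that crosses splice junctions. It is printed because the largest difference of the set rests on it alone.
CA9 probe: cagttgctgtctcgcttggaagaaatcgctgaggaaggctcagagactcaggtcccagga

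NDRG1, a stress-induced gene that hypoxia, iron loss and p53 raise, was the other large decrease. It measured 10.94, 10.94 and 12.54 in untreated HT29 and 9.14, 9.31 and 9.21 in untreated HTOXAR3. All HTOXAR3 arrays were lower, and HT29 replicate 3 stood 1.61 above its group. The difference of -2.25 (SE 0.31, BY adjusted p = 0.000888 in limma) became -1.72 (BY adjusted p = 1.68e-06) without that array. Among the other induced genes, CITED2, a competitor of HIF1A for its coactivator, was lower, with a difference of -0.75 (BY adjusted p = 0.000252), while its second probe gave -0.32, not called, and the mean of both -0.53 (BY adjusted p = 0.0172). ANKRD37, a small ankyrin repeat protein, was lower, with a difference of -0.62, and its call was lost in 5 of the 6 fits that left out 1 untreated array, all but that without HT29 replicate 1 (-0.48 and BY adjusted p = 0.123 without HT29 replicate 3).

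ADM, which encodes the vasodilator peptide adrenomedullin, went the other way. Its levels were 10.85, 10.88 and 10.82 in untreated HT29 and 12.20, 12.11 and 12.12 in untreated HTOXAR3. The groups were tight and did not overlap, with a difference of 1.29 (SE 0.09, 2.45-fold, BY adjusted p = 1.07e-06 in limma). P4HA2, a prolyl hydroxylase of collagen, measured 11.20, 11.22 and 11.33 against 12.18, 12.14 and 12.08, a difference of 0.89 (SE 0.06, BY adjusted p = 1e-06). A further P4HA2 probe gave 0.88. HIF1A itself was at 9.44, 9.39 and 9.45 in HT29 and 10.26, 10.34 and 10.26 in HTOXAR3. That difference of 0.86 (SE 0.05 over 10 spots per array, BY adjusted p = 4.26e-07) was 0.90 by a second HIF1A probe, also called. EGLN3, the hydroxylase gene that HIF1A induces, was lower in HTOXAR3, with a difference of -0.60 (BY adjusted p = 0.00873), and EGLN1 was not called. The EGLN3 call was lost without HTOXAR3 replicate 3 (BY adjusted p = 0.0577). The second EGLN3 probe was above background on no array, and averaging both probes gave -0.12.

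VEGFA, the main growth factor of blood vessels, measured 10.63, 10.55 and 10.56 in untreated HT29 and 11.89, 11.76 and 11.75 in untreated HTOXAR3. By this probe HTOXAR3 was higher with no overlap, by 1.22 (SE 0.10, 2.33-fold, BY adjusted p = 1.1e-05 in limma). The second VEGFA probe, 3′ of it at chr6:43753511-43753570 (GRCh37, + strand), disagreed, with a difference of -0.25 that was not called. The mean of both probes differed by 0.49. The probe used spans 412 bases (chr6:43746223-43746634, + strand) with its 60 bases, and it is printed because the disagreement makes it matter which part of the gene was read.
VEGFA probe: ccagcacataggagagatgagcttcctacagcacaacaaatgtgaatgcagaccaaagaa

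Of the 16 glycolytic enzymes 3 were called between the untreated lines (18.8%, against 11.6% of all gene names), ENO2 and PGAM1 higher and ALDOC lower. ENO2, the neuronal type enolase, was at 6.95, 6.98 and 7.37 in untreated HT29 and 8.30, 8.38 and 8.32 in untreated HTOXAR3. HTOXAR3 was higher on every array, by 1.23 (SE 0.09, 2.34-fold, BY adjusted p = 2.68e-06 in limma), while ENO1, the ubiquitous enolase, was not called at -0.25. ALDOC, the brain type aldolase, ran from 6.64 to 7.83 in HT29 and from 5.93 to 6.05 in HTOXAR3, a difference of -1.07 (BY adjusted p = 0.0465) that was -0.68 without HT29 replicate 3 (BY adjusted p = 0.0119). Its call was lost without any 1 of the 3 HTOXAR3 arrays (BY adjusted p up to 0.188). ALDOA, the ubiquitous aldolase, differed by 0.01. PGAM1, phosphoglycerate mutase, was higher by 0.29, a call lost in 5 of the 6 fits that left out 1 array, all but that without HT29 replicate 1 (0.25 and BY adjusted p = 0.139 without HT29 replicate 3), while the second PGAM1 probe gave 0.46, also called. The 9 enzymes GPI, ALDOA, TPI1, GAPDH, PGK1, PGAM1, ENO1, PKM and LDHA, which carry the main flux in most cells, all lay between -0.25 and 0.29. PFKL, PFKM, PFKP, HK1 and HK2 were not called.

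Of the 3 regulators of flux 2 were called (66.7%, against 11.6% of all gene names). PFKFB4, which makes and removes the fructose bisphosphate that activates phosphofructokinase, measured 6.93, 6.75 and 8.08 in untreated HT29 and 8.55, 8.62 and 8.76 in untreated HTOXAR3. HTOXAR3 was higher on every array, by 1.39 (SE 0.24, 2.62-fold, BY adjusted p = 0.00655 in limma), and HT29 replicate 3 lay closest to it. Without that array the difference was 1.80 (BY adjusted p = 9.59e-08). PDK1, the kinase that shuts pyruvate out of the mitochondrial dehydrogenase, was lower, with a difference of -0.61 (BY adjusted p = 0.00729), or -0.47 without that array. Of the transporters, SLC16A3, which exports lactate, was lower, with a difference of -0.45 (BY adjusted p = 0.0308), a call lost in 5 of the 6 fits that left out 1 array, all but that without HT29 replicate 2 (-0.37 and BY adjusted p = 0.163 without HT29 replicate 3). SLC2A1, the main glucose transporter, did not pass the test, with a difference of -0.02 (95% interval -0.14 to 0.10).

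**Figure D1:**
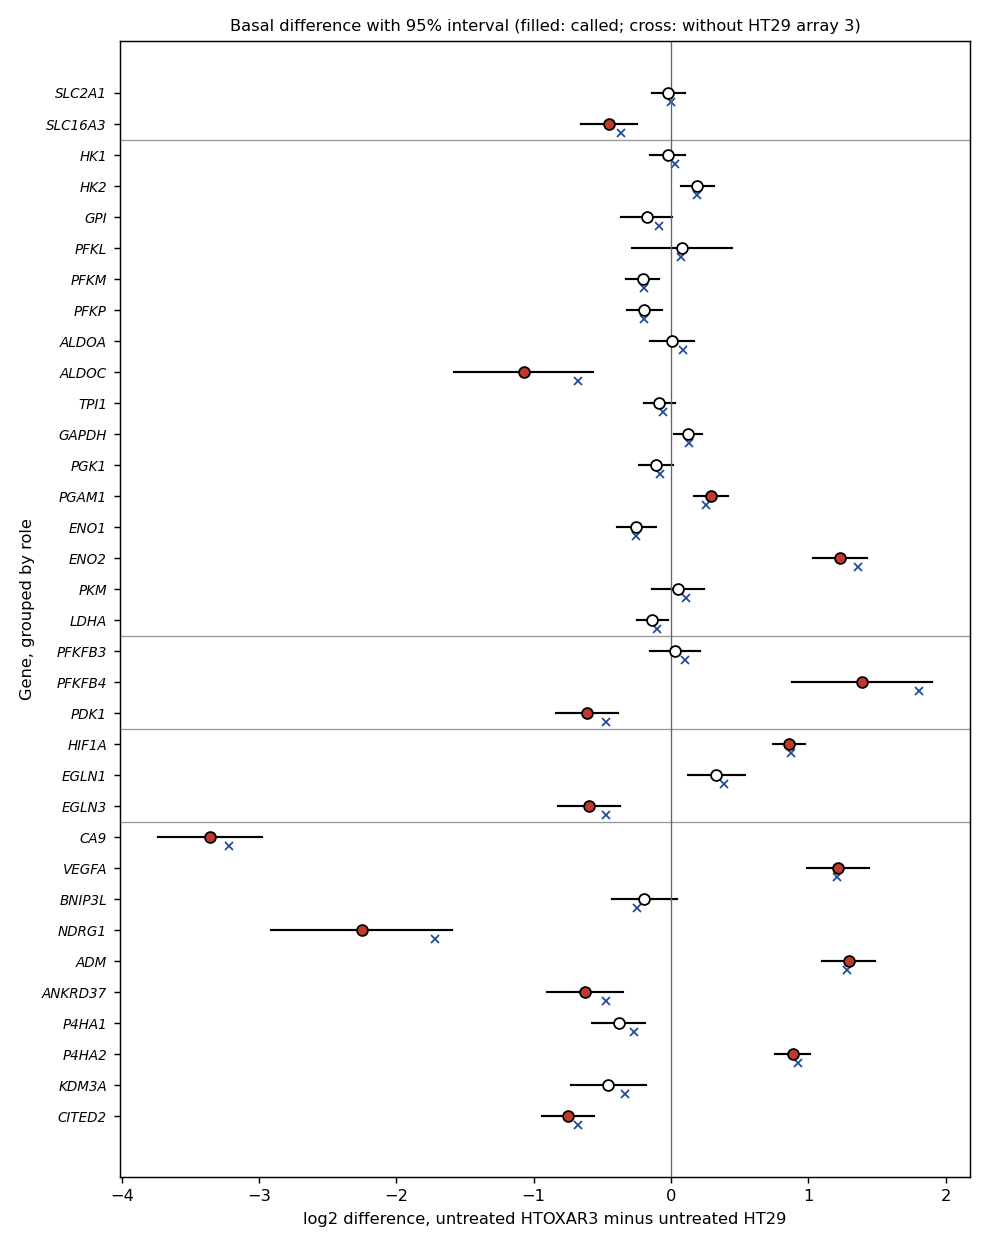
Log2 difference, untreated HTOXAR3 minus untreated HT29, for the 34 genes above background, with 95% intervals from the limma fit, filled points for called genes and crosses for the value without replicate 3 of untreated HT29. CA9 at -3.36 and NDRG1 at -2.25 lie far to the left and ADM, ENO2, VEGFA and PFKFB4 to the right, and the crosses of NDRG1, ALDOC and PFKFB4 lie farthest from their points.

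The second comparison asked what 24 h of OXA did in each line. HK2 and PFKL, at the head of glycolysis, fell in both lines and the lactate exporter SLC16A3 fell in HT29, while ENO2, P4HA2 and CITED2 rose in both lines. Of the 36 genes 9 were called in HT29 (25%, against 16% of all gene names), 6 higher and 3 lower, where 8.34% of all gene names were higher and 7.62% lower. With each array set to its 75th percentile 4 were higher and 4 lower in HT29. In HTOXAR3 8 were called (22.2%, against 10.3%), 6 higher and 2 lower, where 5.33% of all were higher and 4.95% lower. The median member difference was 0.11 in HT29 and 0.13 in HTOXAR3, against -0.01 and 0.01 over all gene names. CITED2, ENO2, GPI, HK2, P4HA2, PFKL and TPI1 were called in both lines in the same direction, which is 7 of the 9 HT29 calls and 7 of the 8 HTOXAR3 calls. How many of all gene names were called in both lines was not counted.

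HK2, the inducible hexokinase that commits glucose to the cell, measured 12.14, 12.15 and 12.14 in untreated HT29 and 11.17, 11.11 and 11.06 after OXA. In HTOXAR3 it measured 12.32, 12.35 and 12.33 untreated and 11.98, 11.82 and 11.98 after OXA. OXA arrays were lower than untreated arrays throughout in both lines. The differences were -1.03 (SE 0.06, BY adjusted p = 9.52e-08) and -0.41 (SE 0.06, BY adjusted p = 0.00125) in limma, and the test of the line difference gave 0.62 (SE 0.08, BY adjusted p = 0.00449). A second, dimmer HK2 probe, above background on 13 arrays, gave -0.36 and -0.32, not called, and a line difference of 0.04. With the mean of both probes the line difference was 0.33 and not called, and the HTOXAR3 difference of -0.37 lost its call (BY adjusted p = 0.244).

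PFKL, the liver type phosphofructokinase, had the largest decrease. It was at 12.36, 13.02 and 12.67 in untreated HT29 and 10.91, 11.35 and 11.02 after OXA. In HTOXAR3 it went from 12.84, 12.74 and 12.72 to 11.78, 12.04 and 11.71. There was no overlap in either line, with differences of -1.59 (SE 0.17, 3.01-fold, BY adjusted p = 7.08e-05) and -0.92 (SE 0.17, 1.89-fold, BY adjusted p = 0.0143) in limma. The HTOXAR3 call was lost in 5 of the 6 fits that left out 1 array, all but that without OXA replicate 2 (-1.02 to -0.86, BY adjusted p up to 0.0844). The line difference of 0.67 (95% interval 0.15 to 1.19) did not pass the test. PFKM and PFKP, the other isozymes, were not called in either line. The PFKL probe spans 260 bases of GRCh37 (chr21:45744490-45744749, + strand) and is printed because it is the only one for the gene.
PFKL probe: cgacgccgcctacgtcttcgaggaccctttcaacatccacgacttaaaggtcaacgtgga

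ENO2 rose from the levels above to 8.52, 8.68 and 8.64 in HT29 and to 9.23, 9.29 and 9.27 in HTOXAR3. The rise was 1.51 (SE 0.09, 2.86-fold, BY adjusted p = 3.04e-07 in limma) in HT29 and 0.93 (SE 0.09, 1.91-fold, BY adjusted p = 7.91e-05) in HTOXAR3. The line difference of -0.58 was not called with all arrays, and was -0.72 and called without HT29 untreated replicate 3 (BY adjusted p = 0.00458). GPI, the isomerase after hexokinase, was at 16.11, 16.03 and 16.34 in untreated HT29 and 16.51, 16.67 and 16.75 after OXA, and at 15.91, 16.08 and 15.95 and then 16.47, 16.60 and 16.48 in HTOXAR3. It rose by 0.48 and 0.54, and TPI1, triose phosphate isomerase, by 0.30 in both lines. These small rises depend on the scaling: with each array set to its 75th percentile, GPI rose by 0.45 in HTOXAR3 but differed by 0.26 in HT29 with no call, and TPI1 differed by 0.09 in HT29 and 0.22 in HTOXAR3 with no call. The HTOXAR3 call of TPI1 was also lost without untreated replicate 1 or OXA replicate 2 of HTOXAR3 (BY adjusted p up to 0.0556). GAPDH, the textbook reference gene, was at 16.79, 16.84 and 16.83 in untreated HT29, 17.07, 17.03 and 16.97 after OXA, 16.91, 16.98 and 16.94 in untreated HTOXAR3 and 17.04, 17.12 and 17.06 after OXA, and was not called in either line. LDHA, the lactate dehydrogenase subunit A, was at 16.28, 16.24 and 16.37 in untreated HT29 and 16.15, 16.19 and 16.16 in untreated HTOXAR3, and it was not called after OXA, like PGK1, PGAM1, ENO1, PKM and ALDOA. The second PGAM1 probe was lower after OXA, with differences of -0.25 in HT29, not called, and -0.29 in HTOXAR3, called, against -0.09 and -0.08 by the probe used. PKM, pyruvate kinase, differed by 0.34 and 0.35, and with the replicate number as a block both were called (BY adjusted p = 0.043 and 0.0474 in limma).

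SLC16A3, the lactate exporter also known as MCT4, split the lines. It measured 15.47, 15.39 and 15.69 in untreated HT29 and 14.26, 14.24 and 14.35 after OXA. In HTOXAR3 it measured 14.94, 15.11 and 15.14 and then 15.08, 15.15 and 15.17. HT29 after OXA lay below all other arrays of both lines, and the HTOXAR3 groups overlapped. It fell by 1.23 in HT29 (SE 0.09, BY adjusted p = 2.91e-06 in limma), the HTOXAR3 difference was 0.07, and the line difference was 1.30 (SE 0.13, BY adjusted p = 0.000645). SLC2A1 was not called in either line, with levels of 14.58, 14.72 and 14.71 and then 14.45, 14.52 and 14.59 in HT29 and of 14.70, 14.63 and 14.62 and then 14.73, 14.69 and 14.67 in HTOXAR3.

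**Figure D2:**
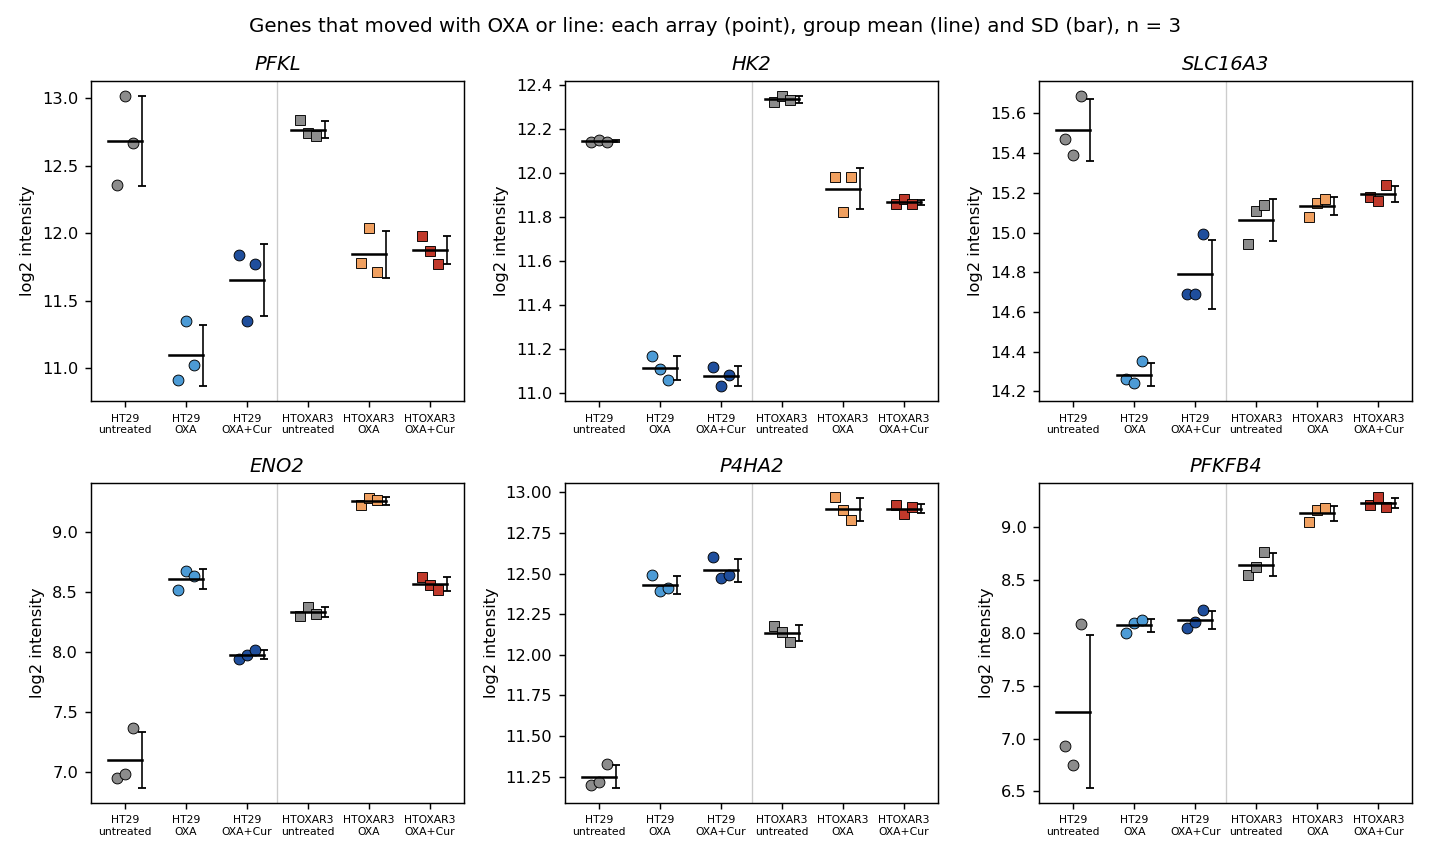
Log2 intensity of PFKL, HK2, SLC16A3, ENO2, P4HA2 and PFKFB4 on each array (points), with the group mean (line) and SD (bar) of 3 replicates, HT29 as circles and HTOXAR3 as squares, each panel on its own scale. PFKL and HK2 are lower after OXA in both lines, SLC16A3 is lower after OXA in HT29 while its HTOXAR3 groups overlap, and the third untreated HT29 array of PFKFB4 sits with the treated arrays.

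Among the hypoxia-induced genes, P4HA2 rose to 12.49, 12.39 and 12.41 in HT29 and to 12.97, 12.89 and 12.83 in HTOXAR3. Every OXA array was above every untreated array of its line, by 1.18 (SE 0.06, 2.27-fold, BY adjusted p = 5.75e-08 in limma) and 0.76 (SE 0.06, 1.7-fold, BY adjusted p = 1.13e-05). CITED2 went from 8.44, 8.23 and 8.56 to 8.97, 8.87 and 8.93 in HT29 and from 7.64, 7.61 and 7.74 to 8.31, 8.27 and 8.17 in HTOXAR3. It rose by 0.51 (BY adjusted p = 0.00568) and 0.59 (BY adjusted p = 0.00316), but the second CITED2 probe gave 0.11 and 0.04, not called. ADM rose in HT29 to 11.73, 11.66 and 11.84, by 0.90 (SE 0.09, BY adjusted p = 3.61e-05). In HTOXAR3 it measured 12.19, 12.11 and 12.20 after OXA, overlapping the untreated arrays at a difference of 0.03. The line difference was -0.87 (SE 0.13, BY adjusted p = 0.0137), and its call was lost without OXA replicate 2 of HTOXAR3 (BY adjusted p = 0.0574) or without untreated replicate 1 of HTOXAR3 (BY adjusted p = 0.0576).

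CA9, by contrast, passed the test in neither line. It was at 10.28, 10.26 and 10.15 in HT29 after OXA and at 7.03, 7.19 and 6.74 in HTOXAR3 after OXA, with differences of -0.04 and 0.08. HIF1A rose in HTOXAR3, from the untreated levels to 10.67, 10.63 and 10.56, by 0.33 (BY adjusted p = 0.00567 in limma). In HT29 it was at 9.65, 9.56 and 9.68, a difference of 0.21 that was not called. The HIF1A line difference of 0.13 was not called. The second HIF1A probe gave 0.48 in HT29 and 0.40 in HTOXAR3, neither called. VEGFA measured 10.87, 10.55 and 10.45 in HT29 and 12.14, 12.00 and 11.92 in HTOXAR3 after OXA and was not called. NDRG1 was at 11.11, 11.03 and 11.09 in HT29 and 9.81, 9.64 and 9.75 in HTOXAR3, with differences of -0.39 and 0.51, neither called. Without untreated replicate 3 the HT29 difference of NDRG1 turned to 0.14, still not called. PFKFB4 was at 8.00, 8.09 and 8.12 in HT29, where untreated replicate 3 lay among them and the other 2 untreated arrays lay below, and the difference of 0.82 was not called. Without that array the difference was 1.23 (BY adjusted p = 3.46e-06). In HTOXAR3 PFKFB4 was at 9.05, 9.16 and 9.18 after OXA, above all untreated arrays, and was not called at 0.49. Leaving out that HT29 array raised the member calls to 11 in HT29 (13.8% of all gene names) and, through a smaller shared spread, to 12 in HTOXAR3 (10.3%). The calls added were PFKFB4 and ALDOA (0.33, against 0.26 with all arrays) in HT29, and HK1, PFKFB4, EGLN3 and NDRG1 in HTOXAR3 at 0.27, 0.49, 0.43 and 0.51.

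The third comparison asked what Curcumin added to OXA. NDRG1 and ADM rose strongly and CITED2 rose in both lines, and ENO2 fell. The 9 enzymes of the main flux lay between -0.35 and 0.15 in HT29 and between -0.22 and 0.23 in HTOXAR3. Of the 36 genes 6 were called in each line (16.7%), 4 higher and 2 lower in each, against 5.52% of all gene names in HT29 (3.14% higher, 2.38% lower) and 8.84% in HTOXAR3 (4.43% higher, 4.41% lower). The median member difference was 0.07 in HT29 and 0.09 in HTOXAR3, against -0.02 over all gene names in each. ADM, CITED2, ENO2 and NDRG1 were called in both lines in the same direction, which is 4 of the 6 calls of each. The overlap over all gene names was not counted here either. No untreated array enters these comparisons. Leaving out untreated HT29 replicate 3 acts on them through the shared spread, and left 6 calls in HT29 (5.34% of all gene names) and 7 in HTOXAR3 (8.77%), where ALDOC was added at 0.63.

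NDRG1 reached 13.84, 13.68 and 13.54 in HT29 and 12.44, 12.30 and 12.67 in HTOXAR3 after OXA plus Curcumin. These were the highest NDRG1 arrays of each line, above replicate 3 of untreated HT29 too. Against OXA alone the rise was 2.61 (SE 0.31, 6.1-fold, BY adjusted p = 0.000735 in limma) in HT29 and 2.74 (SE 0.31, 6.66-fold, BY adjusted p = 0.000323) in HTOXAR3. The line difference was 0.13, with a 95% interval from -0.80 to 1.06.

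ADM reached 13.47, 13.61 and 13.31 in HT29 and 13.98, 13.98 and 14.26 in HTOXAR3. All 6 arrays lay above every other array of their line, with rises of 1.72 (SE 0.09, 3.29-fold, BY adjusted p = 7.81e-07 in limma) and 1.90 (SE 0.09, 3.73-fold, BY adjusted p = 1.58e-07). CITED2 reached 9.52, 9.50 and 9.41 in HT29 and 9.40, 9.57 and 9.68 in HTOXAR3. Its rise was 0.56 (SE 0.09, BY adjusted p = 0.00909) in HT29 and 1.30 (SE 0.09, 2.47-fold, BY adjusted p = 4.79e-06) in HTOXAR3, and the second CITED2 probe gave 0.70, not called, and 1.14, called. The HT29 call by the probe used was lost without OXA replicate 2 or without OXA plus Curcumin replicate 1 or 2 (BY adjusted p up to 0.0586). The line difference of 0.75 (SE 0.13) was not called by BY (adjusted p = 0.146) and passed by Benjamini-Hochberg (BH, adjusted p = 0.0131).

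CA9 ended lower with Curcumin. It was at 9.39, 9.62 and 9.79 in HT29, below all OXA arrays, with a difference of -0.63 that was not called (BY adjusted p = 0.328). In HTOXAR3 it was at 6.25, 6.00 and 5.71, also without overlap, and fell by 1.00 (SE 0.17, 2-fold, BY adjusted p = 0.0113 in limma), a call lost without OXA replicate 1 or 2 or OXA plus Curcumin replicate 3 (-1.13 to -0.86 over the 6 fits that left out 1 array, BY adjusted p up to 0.0778). The line difference of -0.37 did not pass the test. ENO2 went to 7.94, 7.98 and 8.02 in HT29 and to 8.63, 8.56 and 8.52 in HTOXAR3, a fall of 0.64 (BY adjusted p = 0.00433) and 0.69 (BY adjusted p = 0.00133), which left every array above the untreated arrays of its line. The remaining difference from untreated cells was 0.88, called, in HT29 and 0.24, not called, in HTOXAR3. HIF1A was at 9.63, 9.71 and 9.72 and at 10.71, 10.73 and 10.76, and was not called in either line. VEGFA, at 11.11, 10.85 and 10.84 and at 12.17, 12.09 and 12.08, was not called by the probe used, whereas its second probe rose by 0.44 in HTOXAR3. For OXA plus Curcumin against untreated HTOXAR3 the second VEGFA probe gave 0.69, called, and the probe used 0.32, not called.

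**Figure D3:**
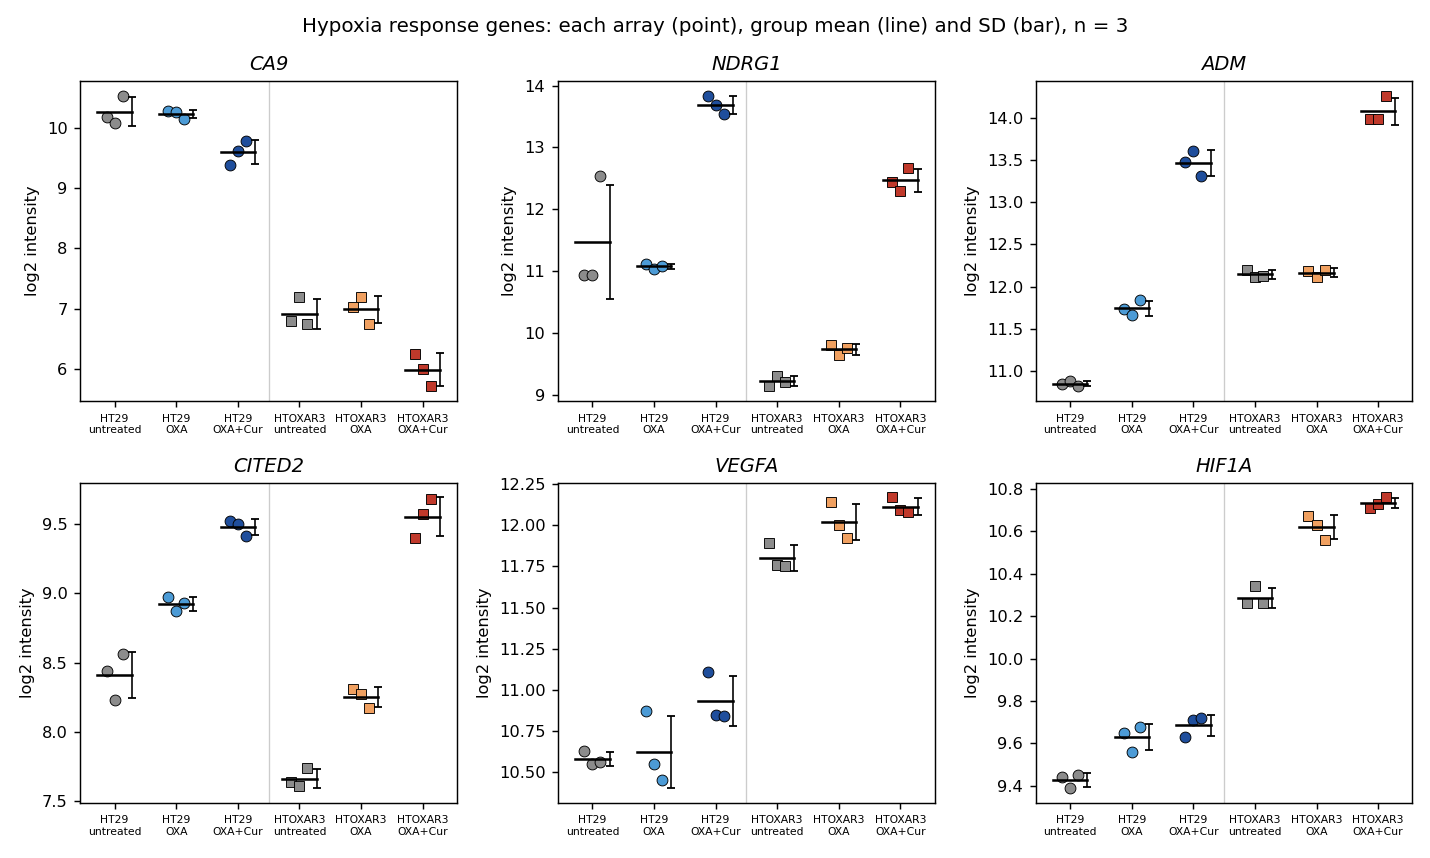
Log2 intensity of CA9, NDRG1, ADM, CITED2, VEGFA and HIF1A on each array (points), with the group mean (line) and SD (bar) of 3 replicates, HT29 as circles and HTOXAR3 as squares, each panel on its own scale. NDRG1, ADM and CITED2 are highest after OXA plus Curcumin in both lines, and CA9 is lower in every HTOXAR3 group than in every HT29 group.

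The transporters and lactate dehydrogenase moved by less. SLC2A1 rose in HTOXAR3, to 15.04, 15.08 and 15.07, by 0.36 (SE 0.06, 1.29-fold, BY adjusted p = 0.00448 in limma). In HT29, at 14.78, 14.72 and 14.74, it was not called, with a difference of 0.22. SLC16A3 rose in HT29, to 14.69, 14.69 and 14.99, by 0.50 (BY adjusted p = 0.0292), and stayed below its untreated arrays. That call was lost whichever of the 6 arrays was left out (0.40 to 0.55, BY adjusted p = 0.0523 to 0.155). In HTOXAR3 it was at 15.18, 15.16 and 15.24, a difference of 0.06. LDHA, which turns pyruvate into lactate, was at 16.48, 16.40 and 16.42 after OXA and 16.10, 16.09 and 16.08 after OXA plus Curcumin in HT29, lower on every array. It fell by 0.35 (SE 0.05, 1.27-fold, BY adjusted p = 0.00594), and in HTOXAR3 the levels of 16.20, 16.10 and 16.22 and then 15.97, 15.93 and 15.95 gave -0.22, which was not called. The second LDHA probe, annotated to chromosome 9 while the gene lies on chromosome 11, gave -0.42, called, and -0.32, not called. For OXA plus Curcumin against untreated HT29 that probe gave -0.40, called, and the probe used -0.21, not called. HK2, at 11.12, 11.03 and 11.08 and at 11.86, 11.88 and 11.86, was not called, with differences of -0.04 and -0.06. PFKL, at 11.84, 11.35 and 11.77 in HT29 and 11.98, 11.87 and 11.77 in HTOXAR3, overlapped OXA alone in both lines and was not called at 0.56 and 0.03. PFKFB4 was at 8.04, 8.10 and 8.21 and at 9.21, 9.28 and 9.19, not called at 0.04 and 0.10. P4HA2 was at 12.60, 12.47 and 12.49 and at 12.92, 12.87 and 12.91, and GPI at 16.57, 16.52 and 16.53 and at 16.43, 16.37 and 16.40, and neither was called.

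**Figure D4:**
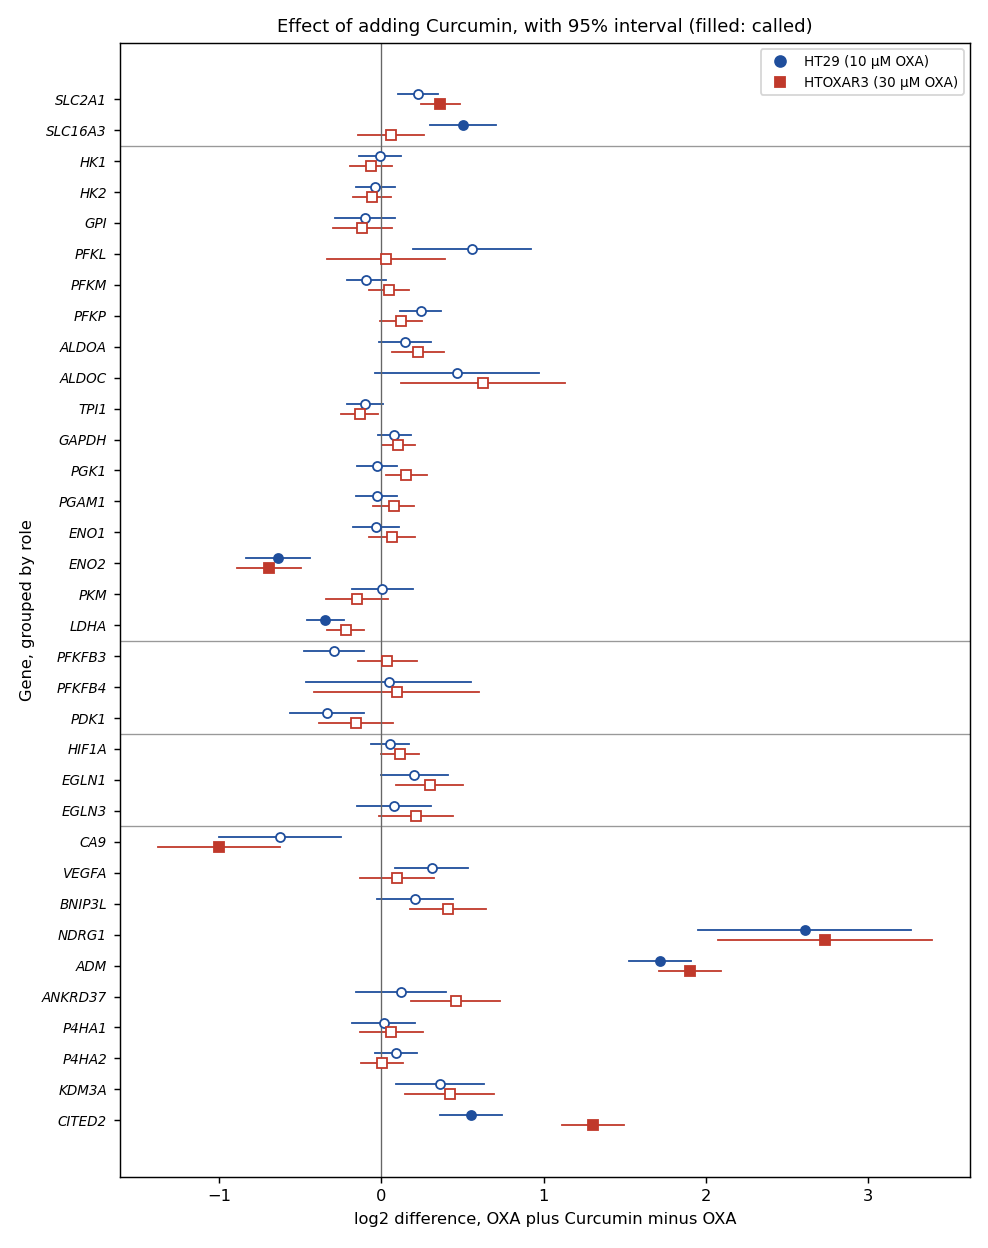
Log2 difference, OXA plus Curcumin minus OXA, for the 34 genes above background in HT29 (circles) and HTOXAR3 (squares), with 95% intervals from the limma fit and filled points for called genes. NDRG1 at 2.61 and 2.74 and ADM at 1.72 and 1.90 stand to the right in both lines, and the intervals of the lines overlap for most genes.

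Set against untreated cells, OXA plus Curcumin left 11 members called in HT29 (30.6%, against 18.6% of all gene names) and 14 in HTOXAR3 (38.9%, against 17.5%). In HT29 8 were higher and 3 lower (9.57% and 9.01% of all gene names), or 6 and 4 with 75th percentile scaling and 6 and 5 with the processed signal, and in HTOXAR3 11 were higher and 3 lower (8.83% and 8.66%). The median difference was 0.23 and 0.24, against -0.03 and -0.01 over all gene names. The same untreated arrays enter here and in the comparison with OXA alone. ADM was higher by 2.62 (6.13-fold, BY adjusted p = 1.41e-09 in limma) in HT29 and 1.93 (3.8-fold, BY adjusted p = 3.69e-08) in HTOXAR3. NDRG1 was higher by 2.21 (BY adjusted p = 0.000636, or 2.75 without untreated HT29 replicate 3) and 3.25 (9.52-fold, BY adjusted p = 1.97e-05), and CITED2 by 1.07 and 1.89. HK2 was lower, with differences of -1.07 and -0.47, and PFKL was lower at -1.03 and -0.89, the latter a call lost without untreated replicate 1 or OXA plus Curcumin replicate 3 of HTOXAR3 (BY adjusted p up to 0.0669). CA9 was lower in HTOXAR3 (-0.93, BY adjusted p = 0.0102, up to 0.0691 and not called without untreated replicate 2 or OXA plus Curcumin replicate 3) and not called in HT29 (-0.67, BY adjusted p = 0.102).

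The HTOXAR3 calls also took in genes not called in HT29: EGLN3 at 0.64 (BY adjusted p = 0.00328 in limma), KDM3A, a histone demethylase, at 0.71 (BY adjusted p = 0.00623), HIF1A at 0.44, SLC2A1 at 0.41 and PFKP at 0.33. Averaging EGLN3 with its second, dim probe gave 0.19 and no call, PFKP lost its call without OXA plus Curcumin replicate 2 (BY adjusted p = 0.0525), and HIF1A was called in HT29 too with slide as a block (0.27, BY adjusted p = 0.0384). The second HIF1A probe gave 0.44 in each line and the second PFKP probe 0.25 in HTOXAR3, none of them called. None of these 5 genes passed the test of the line difference. SLC16A3 was lower in HT29, with a difference of -0.73 (BY adjusted p = 0.000347), against 0.13 in HTOXAR3. ENO2 was higher by 0.88 in HT29, against 0.24 in HTOXAR3 that was not called, and GAPDH by 0.28 (1.21-fold, BY adjusted p = 0.00366), against a GAPDH difference of 0.23 in HTOXAR3 that stayed under the fold minimum. The array levels of GAPDH after OXA plus Curcumin were 17.11, 17.09 and 17.10 in HT29 and 17.16, 17.20 and 17.18 in HTOXAR3. With 75th percentile scaling the GAPDH difference in HT29 was 0.12, and the HT29 rises of ALDOA (0.41) and GPI (0.38) were 0.24 and 0.21, none of them called. Under that scaling the median of all gene names moved from -0.03 to -0.16 in HT29 and from -0.01 to -0.17 in HTOXAR3. Without untreated HT29 replicate 3, 14 members were called in HT29 (16.3% of all gene names), with ALDOC (0.82, against 0.43 with all arrays), PFKFB4 (1.28 against 0.86) and KDM3A (0.63 against 0.50) added, and 16 in HTOXAR3 (17.4%), with ALDOC (0.77) and PFKFB4 (0.59) added.

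Tests of the line differences themselves were few. For OXA 3 of 36 members were called (8.33%, against 1.01% of all gene names, 0.608% higher and 0.401% lower), SLC16A3 at 1.30, HK2 at 0.62 and ADM at -0.87. For the effect of adding Curcumin 0 were called by BY in limma (0.135% of all gene names, 0.0276% higher), 5 had an unadjusted p under 0.05, and 1, CITED2, passed by BH. For OXA plus Curcumin 3 were called (8.33%, against 0.854%, 0.32% higher and 0.533% lower), SLC16A3 at 0.86 (BY adjusted p = 0.0294), CITED2 at 0.82 (BY adjusted p = 0.0271) and HK2 at 0.60 (BY adjusted p = 0.00933). The second probes of HK2 and CITED2 gave -0.04 and 0.37 for this line difference, neither called, and with the mean of all probes HK2 was at 0.28 and CITED2 at 0.60, neither called. The calls of SLC16A3 and CITED2 were each lost in 10 of the 12 fits that left out 1 array (BY adjusted p up to 0.112 and 0.104), and that of CITED2 with the replicate number or slide as a block (BY adjusted p = 0.0543 and 0.0819). Without untreated HT29 replicate 3, 5 were called for OXA (0.895% of all gene names), with ENO2 and PFKFB4 (-0.74, against -0.33 with all arrays) added, 0 for adding Curcumin (0.102%) and 2 for OXA plus Curcumin (0.707%), HK2 and ENO2 (-0.77 against -0.64), while SLC16A3 (0.77, BY adjusted p = 0.0567) and CITED2 (0.75, BY adjusted p = 0.0616) lost their calls. In all 3 tests the lines also differed in OXA dose.

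**Figure D5:**
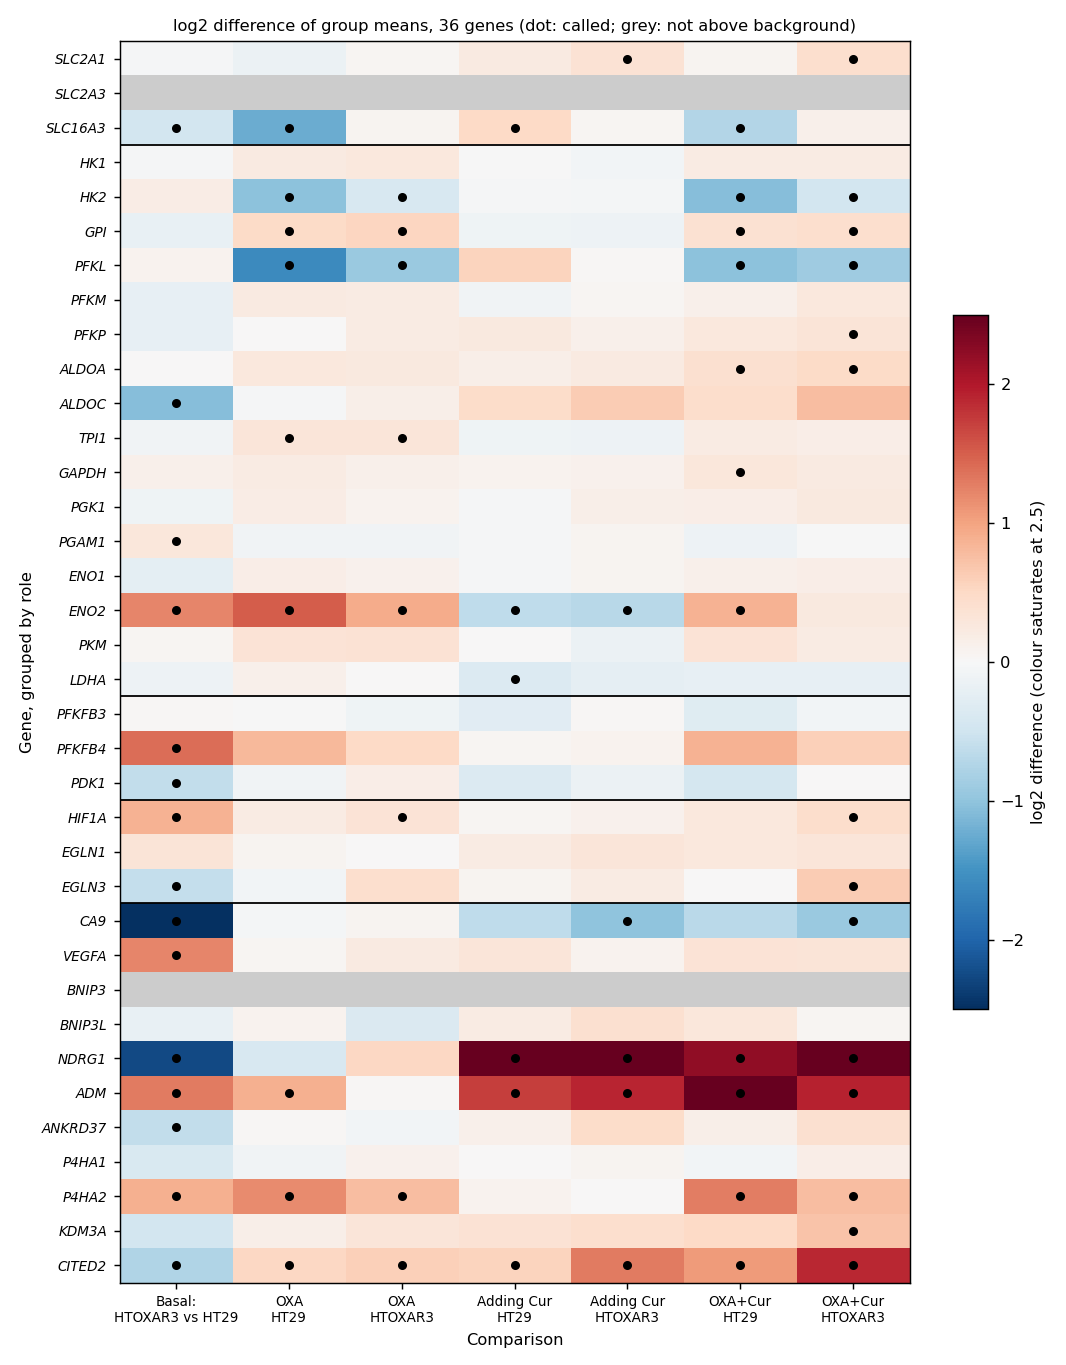
Log2 difference of group means (colour, saturating at 2.5) for the 36 genes in the 7 comparisons of groups, with a dot for each call, grey for the 2 genes not above background and lines between the roles. ENO2 and CITED2 carry dots in 6 and 7 columns, NDRG1 is deep red wherever Curcumin was added, and most glycolytic enzymes are pale.

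Across these comparisons 25 of the 36 genes were called at least once and 11 never: BNIP3, BNIP3L, EGLN1, ENO1, HK1, P4HA1, PFKFB3, PFKM, PGK1, PKM and SLC2A3. The share of all gene names called at least once was not counted, so these counts describe the list only. By role, the 11 other hypoxia-induced genes held 7 of the 15 calls between untreated lines, 3 of 9 and 2 of 8 after OXA, and 3 of 6 and 4 of 6 after adding Curcumin. The 16 glycolytic enzymes held 3, then 5 and 5, then 2 and 1. As shares these are 63.6%, then 27.3% and 18.2%, then 27.3% and 36.4% of the 11 genes and 18.8%, then 31.2% and 31.2%, then 12.5% and 6.25% of the 16 enzymes, where 11.6%, then 16% and 10.3%, then 5.52% and 8.84% of all gene names were called. The 3 regulators of flux were called between untreated lines (2 of 3, or 66.7%, against the same 11.6%) and in no treatment comparison with all arrays. For BNIP3L, a mitophagy receptor, the choice of probe mattered. The brightest probe was not called, but the dimmest of its 3 probes was called after OXA in HT29 (0.64), after adding Curcumin in HTOXAR3 (1.02) and after OXA plus Curcumin in both lines (1.15 and 1.55), and the middle probe was called after OXA plus Curcumin in HTOXAR3 (0.80).

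Other genes of these pathways were read from the same fit, in lists made by function with earlier results of these data known, and the examples named were chosen after their values were seen. Of 28 further genes of glycolysis and glucose metabolism, 7 were called between untreated lines (3 higher, 4 lower), 7 and 9 after OXA, and 6 and 5 after adding Curcumin, the HT29 count first. These are 25%, then 25% and 32.1%, then 21.4% and 17.9% of the list, where 11.6%, then 16% and 10.3%, then 5.52% and 8.84% of all gene names were called. HKDC1, a hexokinase-like enzyme, was lower in untreated HTOXAR3, with a difference of -1.42, as was FBP1, a gluconeogenic phosphatase, at -0.97. ENO3, the muscle enolase, rose after OXA by 1.67 and 1.16, as ENO2 did, and SLC16A1, another lactate transporter, fell by 0.88 and 0.59. Of 38 further hypoxia response genes 9 were called between untreated lines (6 higher, 3 lower), 15 and 13 after OXA, and 7 and 8 after adding Curcumin, which is 23.7%, then 39.5% and 34.2%, then 18.4% and 21.1% of that list against the same shares of all gene names. EPAS1, the HIF2 subunit, was higher in untreated HTOXAR3 by 0.48 and rose after OXA by 0.87 and 0.51. CA12, a carbonic anhydrase of the cell surface like CA9, was lower in untreated HTOXAR3, with a difference of -0.75 and fell after OXA by 1.80 and 1.53. DDIT4, a stress-induced inhibitor of mTOR, and HMOX1, heme oxygenase, moved the same way in both lines. HMOX1 fell by 1.97 and 1.86 after OXA and rose by 2.89 and 3.06 when Curcumin was added. DDIT4 fell by 1.37 and 0.94 and then rose by 1.85 and 1.32.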

How the data were processed

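Expression was measured on 18 arrays, 3 biological replicates in each of 6 groups of cell line and treatment, and groups were taken from the sample labels. Total RNA had been amplified, labelled with Cy3 and hybridised to one-colour Agilent arrays. The authors deposited the output of Agilent Feature Extraction 10.7.3.1 for each array, with linear, unnormalized intensities: each spot's mean, the local background's median, and a processed intensity from which the software had already subtracted background. A value table of theirs that lacks probe names was not used. Of 62976 spots 58717 were not controls. Following the study's methods, the mean intensity was background corrected with normexp and quantile normalized. The offset was 0 because none is given in the sources used here. Quantile normalization acted on linear intensities and log2 was taken afterwards, whereas the study's methods describe it for log2 intensities. Outlier-flagged spots were treated as missing, 1 saturated spot was kept, spots of a probe were averaged, and the probe with the highest mean stood for each gene name. Probe positions are those of the array annotation on GRCh37.

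A model with 6 group terms was fitted over all 36204 gene names with lmFit and eBayes of limma 3.58.1 (R 4.3.3, the package data.table at 1.17.8), and p-values were adjusted by BY as in the study's methods. Adjusted p-values in the text come from this fit. The fit was tested on simulated data with known changes. Python 3.11.15, pandas 2.3.3 and matplotlib 3.10.9 served for counts and figures. Precision is limited by having 3 arrays in each group.

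Values of every array are given for 16 genes: the 5 called members with the largest difference in each comparison between untreated lines, after OXA or on adding Curcumin, every member called in a line difference, and always HIF1A, CA9, VEGFA, SLC2A1, LDHA and GAPDH. The other 20 are given by ranges and counts. The members and lists were chosen with earlier results of these data known. The alternatives tried were other offsets, scalings, probe rules, adjustments, fold minimums, blocks, fits on the groups compared and leaving out each array.

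Replicate numbers are shared between groups, but neither the labels nor the methods describe a pairing. Deviations of same-numbered arrays correlated at 0.120 to 0.244 between untreated and OXA in HT29 and at 0.109 to 0.197 between OXA and OXA plus Curcumin in HTOXAR3, so every pair passed 0.1 there, and not in the other comparisons. The arrays lay on 3 slides, of which slide 1 held 2 arrays and slides 2 and 3 held 8 arrays and all 6 groups each, with 1 scan day.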

Additional observations from a re-analysis of the deposited data

Results flagged for a closer look

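For 6 results the tested effect of treatment differed between the lines by the interaction term of the limma fit, given as HTOXAR3 minus HT29 on the log2 scale. In the response to OXA these were SLC16A3 at 1.30, HK2 at 0.62 and ADM at -0.87. In the response to OXA plus Curcumin they were SLC16A3 at 0.86, HK2 at 0.60 and CITED2 at 0.82. The second HK2 probe gave 0.04 and -0.04 for the 2 responses and the second CITED2 probe 0.37, none of them called. The calls of SLC16A3 and CITED2 for OXA plus Curcumin were each lost in 10 of the 12 fits that left out 1 array, with untreated HT29 replicate 3 among them (BY adjusted p = 0.0567 and 0.0616 in limma), and that of CITED2 also with the replicate number or slide as a block (BY adjusted p = 0.0543 and 0.0819). ADM lost its call in 2 of 12 such fits, and SLC16A3 for OXA and HK2 for both responses in 0 of 12. HT29 had received 10 µM OXA and HTOXAR3 30 µM, and the line cannot be told apart from the dose. The 2 tests share their untreated arrays.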

How the results depend on the processing

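Of 75 calls of single members, 20 were kept under every alternative, 55 were lost under at least 1, and 0 changed direction. With a fold minimum of 2, the members called were 7 between untreated lines, 5 and 0 after OXA in HT29 and HTOXAR3, 2 on adding Curcumin in HT29, 6 and 3 after OXA plus Curcumin, and 1 and 0 in the line differences for OXA and for OXA plus Curcumin. Fits on only the groups compared, which hold fewer arrays, called 6 between untreated lines, 5 and 2 after OXA, 1 and 3 on adding Curcumin, 4 and 7 after OXA plus Curcumin, and 1 in the line difference for OXA plus Curcumin. BH in place of BY called 10 on adding Curcumin in HTOXAR3, 18 after OXA plus Curcumin in HT29, and 5, 1 and 8 in the line differences for OXA, for adding Curcumin and for OXA plus Curcumin. The mean of all probes called 5 after OXA in HTOXAR3 and 1 in the line difference for OXA plus Curcumin. An offset of 50 called 1 in the line difference for adding Curcumin and 5 in that for OXA plus Curcumin, as did leaving out probes dim on all arrays for the latter (5). Apart from the fewer arrays, the causes were not tested.

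Leaving out 1 array at a time gave 10 to 14 calls between untreated lines, 9 to 11 and 6 to 7 after OXA in HT29 and HTOXAR3, 4 to 5 and 5 to 6 on adding Curcumin, 9 to 14 and 12 to 13 after OXA plus Curcumin, and 2 to 5, 0 to 0 and 1 to 3 in the line differences. Leaving out replicate 3 of untreated HT29 for the comparisons that do not hold it, an alternative chosen after seeing the data, gave 12 after OXA, 7 on adding Curcumin and 16 after OXA plus Curcumin in HTOXAR3, and 6 on adding Curcumin in HT29. Of the 75 calls, 56 were kept in every fit that left out 1 array of the groups compared and 19 were lost in at least 1, including GPI after OXA plus Curcumin in each line (5 of 6 fits each) and ALDOA there in HT29 (2 of 6). With the replicate block the counts were 14, 10 and 9, 6 and 6, 13 and 15, and 3, 0 and 2 in the same order. ALDOC between untreated lines (BY adjusted p = 0.0765 in limma) and CITED2 in the line difference for OXA plus Curcumin (BY adjusted p = 0.0543) lost their calls, VEGFA after OXA plus Curcumin gained one in each line (0.35 and 0.32), PKM gained one after OXA in each line and after OXA plus Curcumin in HT29 (0.34), and the block changed no other member's call. With slide as a block 15, 10 and 9, 6 and 6, 13 and 14, and 3, 0 and 2 were called, with ANKRD37 lost and KDM3A gained between untreated lines, PKM gained after OXA in each line, GPI lost and PDK1, HIF1A and VEGFA gained after OXA plus Curcumin in HT29 and CITED2 lost in the line difference for OXA plus Curcumin, and within slides 2 and 3 every called difference kept its sign. Scaling to the 75th percentile moved the median of all gene names by over 0.1 on adding Curcumin in HTOXAR3 (from -0.02 to -0.14) and after OXA plus Curcumin, and the processed signal did so after OXA in HTOXAR3 (from 0.01 to -0.19), on adding Curcumin in HTOXAR3 in the other direction (to 0.09) and after OXA plus Curcumin (to -0.15 in HT29 and -0.19 in HTOXAR3).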

Other observations

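Of 19 genes of the pentose phosphate pathway and of pyruvate entry into mitochondria, all well above background on every array, 6 were called between the untreated lines and all 6 were lower in HTOXAR3 (31.6% of the list, where 5.28% of all gene names were called lower and 11.6% in either direction). They include TALDO1 (-0.70) and TKT (-0.60), the sugar-exchanging enzymes of the pentose phosphate pathway, and PDK4 (-1.11), a kinase of pyruvate dehydrogenase like PDK1. After OXA 4 were called in HT29 (21.1%, against 16% of all gene names) and 6 in HTOXAR3 (31.6%, against 10.3%). PDK2, another such kinase, rose by 0.99 and 0.60, and RPIA, which isomerises ribose phosphate, fell by 0.81 and 0.40. On adding Curcumin 3 were called in HT29 (15.8%, against 5.52% of all gene names), all higher, and 4 in HTOXAR3 (21.1%, against 8.84%), 2 higher and 2 lower. Against untreated cells, OXA plus Curcumin left 7 called in HT29 (36.8%, against 18.6%) and 10 in HTOXAR3 (52.6%, against 17.5%). On adding Curcumin PGD, a dehydrogenase of the pentose phosphate pathway, rose by 0.37 and 0.32. The genes named here were chosen after their values were seen, and the calls are those of the limma fit with BY adjustment.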
